A study of Mus musculus with 2 samples.

Results

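This report describes 63 mouse genes that encode splicing factors, heterogeneous nuclear ribonucleoproteins (hnRNPs) and proteins of the small nuclear ribonucleoproteins (snRNPs), of 8251 genes named by the array. They were chosen by symbol alone, from probe sets annotated to exactly 1 gene whose symbol begins with Hnrnp, Ptbp, Srsf, Tra2, U2af, Snrp, Prpf, Lsm or the SF3 subunit names, or is Sf1. They are read by 84 probe sets, 45 genes by a single one and 18 by several. The pseudogene Snrp1c-ps2 is kept apart, and 8 further probe sets whose annotation lists such a gene together with another gene were left out.

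The study measured total RNA of 3T3, an established fibroblast line from mouse embryos, on Affymetrix MG_U74Av2 arrays, with 1 array in each of 2 groups. The suspension group was held unattached in serum-free DMEM. The fibronectin group was kept in serum-free DMEM and plated for 30 min on fibronectin at 10 µg/ml, an adhesive matrix protein recognised by integrin receptors. The labels give as the aim to find genes that fibronectin induces and to follow genes of MAPK signalling. How long the suspended cells were unattached, and whether both samples came from 1 culture, was not stated in the labels. The design text speaks of 2 replicates, but only 1 array is labelled for each group, so whether an array stands for 1 culture or for pooled ones is not known. With 1 array per group, no value below has a replicate check and no test was possible, so the words higher and lower apply to this pair of arrays.

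Splicing removes introns from new transcripts and is carried out by the spliceosome, whose U1, U2, U4, U5 and U6 particles each hold a small nuclear RNA and proteins. A ring of Sm proteins surrounds most of these RNAs and a ring of Lsm proteins the U6 RNA. The factors Sf1, U2af1 and U2af2 mark the branch point and the end of the intron, and the SF3a and SF3b complexes then hold U2 there. SR proteins mostly favour the use of nearby exons, and many hnRNPs silence exons or package the transcript. Most of these genes are active in every growing cell, fibroblasts included.

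The deposited values are signals, 1 per probe set, which were scaled to a common mean. Signals below a floor of 490 were set to it before log2 was taken. A gene with 1 signal below the floor has only a bound, written as "at least", and a gene with both below it was not measured. The ratio is the log2 signal on fibronectin minus that in suspension, read from the probe set with the higher mean signal. Signals of different probe sets are not compared as amounts, since probes differ in response. Control probe sets that should detect nothing had a 95th percentile of 1403 in suspension and 1873 on fibronectin, so signals under these levels are close to background. A signal is called bright, or above the negative controls, when it exceeds that percentile, which single control probe sets also do. In bulk RNA, fewer cells expressing a gene and less RNA of it per cell cannot be told apart.

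The arrays had median signals of 784 and 679. The fibroblast label was borne out by 10 of 15 marker genes on the array with both signals above the negative controls. The same held for 1 of 5 markers of blood cells and macrophages and for 0 of 5 epithelial, 0 of 4 endothelial, 0 of 5 muscle and 0 of 2 adipocyte markers. The summed marker signals were 172573 in suspension and 257989 on fibronectin for fibroblasts, and 8166 and 6281 for blood cells and macrophages. Much of the fibroblast sum came from Col1a1, with 45605 and 68592, Col1a2, with 36666 and 63147, and S100a4, with 40028 and 46623. Among fibroblast markers, Vim, Fap, Lum and Postn were lower on fibronectin, each with at least 1 signal not above the negative controls. Fn1 was nearly equal, with a ratio of -0.05. The other fibroblast markers with both signals above the negative controls were all higher. Thy1 lay below the floor described above on both arrays. The part of these cell types in the ratios below was not tested. The 2 arrays also differed in scan day, chip lot, operator and fluidics module, which cannot be told apart from the groups.

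Of the 63 genes, 61 were measured and most had similar signals on both arrays. With signals below the floor raised to it, 44 genes, or 72.1%, had ratios under 1.5-fold, against 61.6% of all 6385 measured genes. The 61 hold 9 bounds, and all measured genes hold 1580. Only 4 of the 9 reached 1.5-fold, and the others count among the 44 although their signals lay further apart. The counts that follow use floored signals too, so a bound can stand for a larger difference. On fibronectin 9 genes were higher by 1.5-fold or more and 8 were lower by as much, which is 14.8% and 13.1% of the measured members, against 15.9% and 22.6% of all measured genes. The share higher thus lies near that of all genes. Only Srsf10 was higher by 2-fold or more and 0 genes were lower by 2-fold, against 5.79% and 9.27% of all measured genes. A ratio above 0 was found for 34 of the 61, and 27 were below 0. Among all measured genes 44.9% were above 0 and 55.1% below. The median ratio was 0.05, with an interquartile range of 0.77, against -0.09 and 0.89 over all measured genes.

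**Figure D1:**
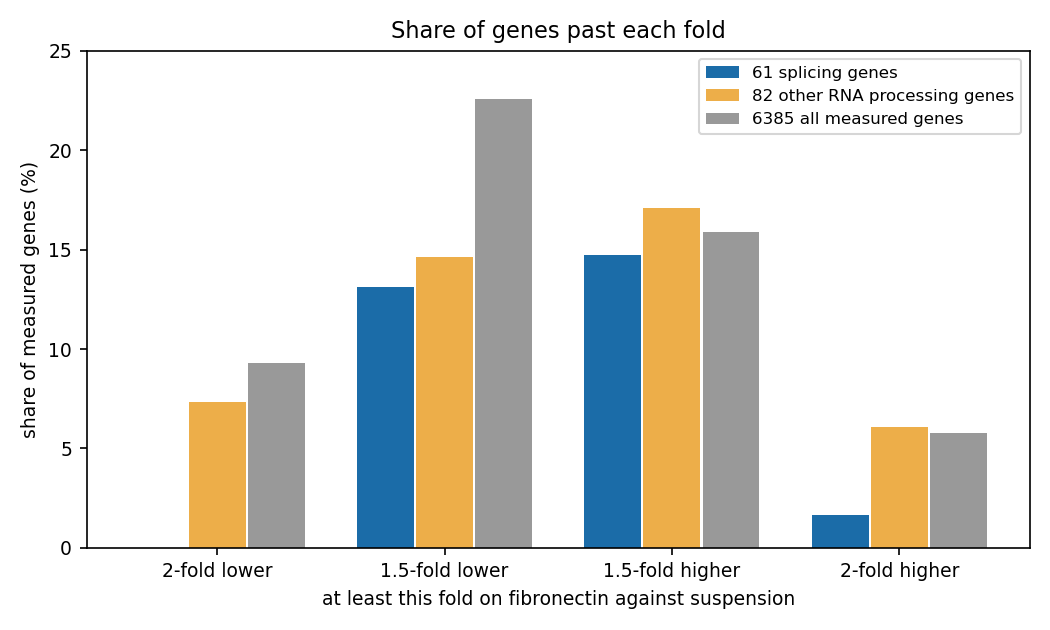
The bars show the share of measured genes, in percent, that differed by 2-fold or by 1.5-fold or more between fibronectin and suspension in each direction, for 61 splicing genes, 82 other RNA processing genes and 6385 measured genes. Among the splicing genes the 2-fold lower bar is at 0 and the 2-fold higher bar at 1.64%.

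These genes also lay in the upper range of signals, where ratios scatter less. Both signals were above the negative controls for 39 of the 61, or 63.9%, against 35.4% of all measured genes. Within that range 3 members (7.69%) were higher and 4 (10.3%) lower by 1.5-fold or more, against 16.9% and 7.29% of 2263 genes. The interquartile range was then 0.49 for members and 0.69 for these genes.

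The only error that these arrays allow comes from genes with more than 1 probe set. Over 1146 such genes, the SD of a ratio between probe sets of a gene was 0.69. It was 0.40 over the 197 genes with 2 probe sets above the negative controls on both arrays. It leaves out the spread between cultures and whatever all probe sets of an array share. Of the 61 ratios, 15 or 24.6% were larger than 0.69 in either direction, against 31.1% of all measured genes. Beyond 2 SD lay 0 members, against 5.61% of all. For the 39 genes with bright signals, the SD of bright probe sets was exceeded by 15 or 38.5%, against 43.1% of the 2263 genes as bright. Beyond 2 such SDs lay 3 members, namely Hnrnpll, Sf3b5 and Snrpb, which is 7.69% against 11% of those genes. Each of these member shares was below that of the genes it is set against. Those of the bright genes rest on only 15 and 3 members, and the first 2 comparisons set brighter members against all genes.

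**Figure D2:**
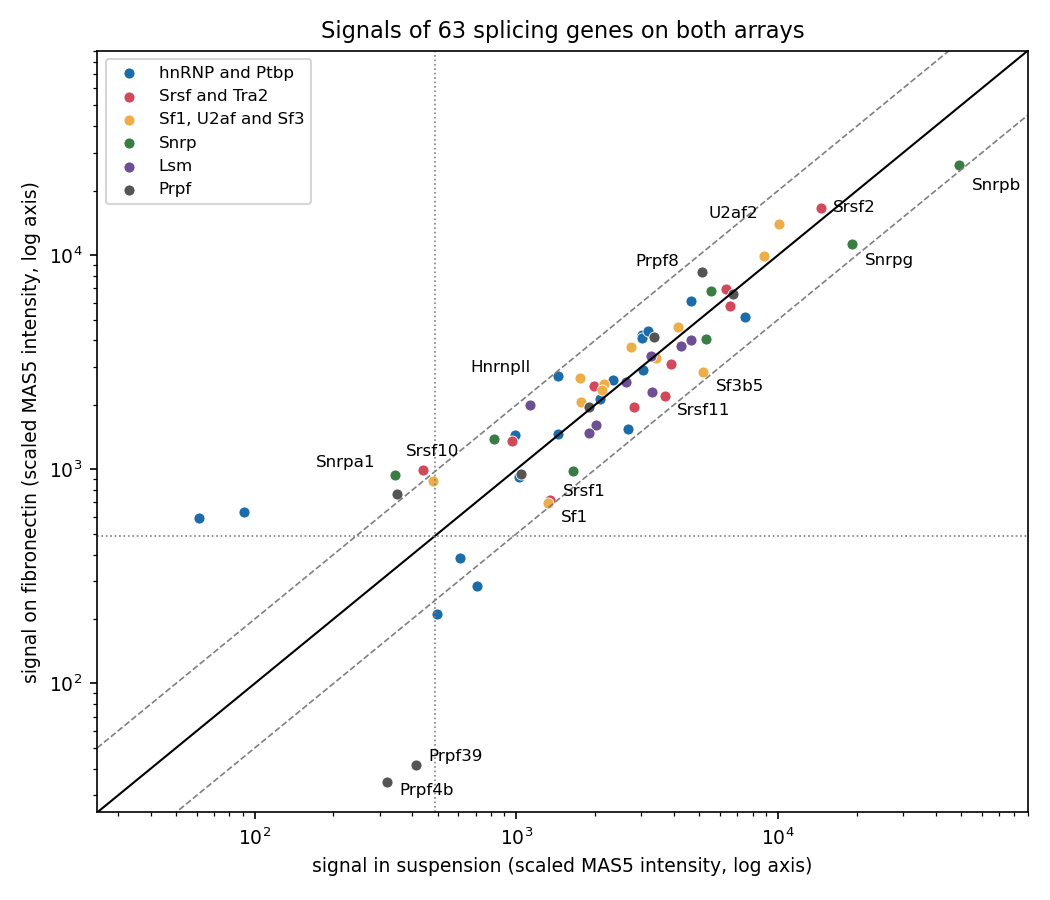
Each point is 1 of 63 splicing genes, with its signal in suspension on the horizontal and on fibronectin on the vertical axis, both logarithmic and coloured by group. The solid line marks equal signals, dashed lines a 2-fold difference and dotted lines the floor of 490; points above the floor on both arrays lie between the dashed lines, and Prpf39 and Prpf4b lie below it on both.

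The direction of the group depended on how the arrays were scaled. When each array was scaled to its median, the ratio of all genes was shifted by 0.19, and scaling to 9 spiked hybridisation controls shifted it by -0.43. The members followed, with 43 above 0 and 17 below under median scaling, and 14 above and 47 below with the spikes. Differences of 1.5-fold or more were found upward for 17 members and downward for 4 under median scaling, or 28.3% and 6.67%, against 23.3% and 15.4% of all genes. With the spikes it was 2 and 21, or 3.28% and 34.4%, against 5.77% and 45.9%. Quantile normalization and loess each gave 10 and 8, or 16.7% and 13.3%, against 18.3% and 18.8% of all genes in the first and 18.4% in both directions in the second. Relative to all genes, the median of the members lay higher under each of the 11 alternatives to the scaling, the floor and the choice of probe set. The members were brighter than all genes, however. Among genes with both signals above the negative controls, the main setting gave medians of 0.14 for members and 0.09 for all, which lie closer together.

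The proteins of the snRNP particles differed most among themselves. Of 7 measured genes, 2 (28.6%) were higher and 3 (42.9%) lower by 1.5-fold or more, against 15.9% and 22.6% of all measured genes. Their median was -0.39. Snrpb, which encodes the B protein of the Sm ring, gave 49319 units of signal in suspension against 26220 on fibronectin. It was 1.88-fold lower in this probe set. A second one, with 546 and 47, gave at least 1.12-fold lower. Snrpg, the G protein of the same ring, had 19204 and 11266 and was 1.70-fold lower. Both genes thus had lower signals on fibronectin at levels far above background.

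The other 2 of the 4 Sm genes read here had ratios above 0. Snrpd3, another ring subunit, had signals of 824 and 1390 and was 1.69-fold higher, with both signals below the 95th percentiles of the negative controls. Snrpe had 5542 and 6778, a ratio of 0.29, which is under the SD of 0.40 for bright probe sets. By sign alone these 4 Sm genes were split, with 2 above 0 and 2 below, a split also seen under median scaling, quantile normalization and loess. With the spikes 1 was above and 3 below. Snrpd2 and Snrpd1 were left out, since their probe sets are listed with another gene. Snrpd2 had 6664 and 6519, a ratio of -0.03, and Snrpd1 had 0.41 at low signals.

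The U1 protein gene Snrpc had signals of 5311 and 4066, a ratio of -0.39. The 2 proteins specific to U2 went opposite ways at low signals. Snrpa1 had 344 and 937 and was at least 1.91-fold higher. Snrpb2 had 1649 and 978 and was 1.69-fold lower, and its other probe set, with 1335 and 265, was at least 2.72-fold lower. The second probe set of Snrpb2 and the only one of Snrpe carry a suffix that marks a family of sequences. Those of Snrpb and the first of Snrpb2 carry a suffix for probes chosen under relaxed rules. With only probe sets of the plain suffix, 4 Snrp genes remained and their median was 0.18, so the sign of the group median was not settled. The pseudogene Snrp1c-ps2, kept apart, had 4305 and 902 in a probe set of the family suffix.

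The Lsm genes, whose products form rings like those of the Sm proteins, lay close together. Of 8 measured genes 6 were below 0, with a median of -0.19, which was 0.02 under median scaling. Lsm1 stood apart from the other 7. It belongs to the cytoplasmic ring that acts in mRNA decay, had signals of 1126 and 1999 and was 1.77-fold higher, from a suspension signal near background. Lsm8, which takes its place in the nuclear ring on U6 RNA, had 4634 and 4021, a ratio of -0.20. Subunits common to both rings had ratios of -0.51 for Lsm3, -0.17 for Lsm7, -0.04 for Lsm2 and 0.05 for Lsm4. Lsm14a and Lsm14b, relatives found in cytoplasmic RNA granules, had -0.33 and -0.37.

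The SF3a and SF3b complexes, which make up much of the U2 particle's protein, had 7 of 8 genes above 0 and a median of 0.19. The same counts were found under median scaling and loess, while 6 were above 0 after quantile normalization and 1 with the spikes. Sf3a1 had signals of 1743 and 2672 and was 1.53-fold higher. Sf3b1, the subunit that contacts the branch point helix, had 2731 and 3736, a ratio of 0.45, and its other probe set had 678 and 1491, a ratio of 1.14. The ratios of Sf3b2, Sf3a3, Sf3b3 and Sf3b6 were 0.23, 0.22, 0.15 and 0.14. Sf3a2 had 8872 and 9891, a ratio of 0.16, but -0.28 in another probe set, so its direction was not settled. In the probe sets read, each of these 7 ratios was below the probe set SD of 0.69. Their signals were bright, and Sf3a1 and Sf3b1 exceeded the SD of 0.40 for bright probe sets.

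Sf3b5, a small SF3b subunit, was the exception. It had signals of 5167 and 2851 and was 1.81-fold lower on fibronectin. Its only probe set has the plain suffix and signals above each floor used, so only the scalings and normalizations could move its ratio. Under these the ratio ranged from -1.33 with the spikes to -0.65 under median scaling. In the probe sets read, no other SF3 gene had a ratio as far from 0.

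Promoter windows from RefSeq, on the build GRCm38.p6, were matched to 55 of the 63 genes, from 250 bases before to 50 bases after the gene start. Their median GC content was 60.3%, against 60.7% for measured genes and 52.7% for all genes. The letters CCGGAAGT, which many ETS factors bind, occurred on either strand in 10 of 55 members, or 18.2%, against 8.76% of 5125 measured genes and 4.31% of all 27025 genes. ETS factors include targets of the MAPK pathway that the study asked about, but their part in these ratios was not tested. The letters were in 3 genes of the SF3 complexes. Shown are the windows of these 3, all above 0, and of Srsf11, which held the letters and was 1.69-fold lower. The window of Snrpg, 1 of the 2 member Sm genes below 0, is shown for the cAMP response element letters TGACGTCA. Capitals mark the matched letters, which begin 7 bases before the start in Sf3a1 (chr11:4160104-4160403, plus strand), 91 before in Sf3a3 (chr4:124714611-124714910, plus strand) and 13 before in Sf3b2 (chr19:5295406-5295705, minus strand). They begin 43 bases before it in Srsf11 (chr3:158031699-158031998, minus strand) and 49 before it in Snrpg (chr6:86371290-86371589, plus strand). In Sf3a3 and Srsf11 the match is on the other strand and reads ACTTCCGG.
Sf3a1: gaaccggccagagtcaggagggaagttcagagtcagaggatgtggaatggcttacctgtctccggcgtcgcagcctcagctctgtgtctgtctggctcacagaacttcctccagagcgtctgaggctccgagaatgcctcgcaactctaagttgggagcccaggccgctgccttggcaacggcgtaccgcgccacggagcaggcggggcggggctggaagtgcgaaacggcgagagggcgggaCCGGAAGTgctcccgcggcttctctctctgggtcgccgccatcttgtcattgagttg
Sf3a3: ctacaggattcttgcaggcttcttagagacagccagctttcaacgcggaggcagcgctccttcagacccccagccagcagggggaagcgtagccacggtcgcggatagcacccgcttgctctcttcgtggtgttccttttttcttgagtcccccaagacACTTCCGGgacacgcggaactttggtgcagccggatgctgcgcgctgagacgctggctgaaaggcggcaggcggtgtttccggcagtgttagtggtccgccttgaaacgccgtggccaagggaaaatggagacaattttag
Sf3b2: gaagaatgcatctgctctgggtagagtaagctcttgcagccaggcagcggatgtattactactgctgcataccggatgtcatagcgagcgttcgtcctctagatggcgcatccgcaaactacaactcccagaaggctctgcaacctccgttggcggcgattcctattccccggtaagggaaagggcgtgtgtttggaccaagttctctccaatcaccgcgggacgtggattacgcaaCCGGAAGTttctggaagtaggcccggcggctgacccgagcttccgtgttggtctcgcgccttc
Srsf11: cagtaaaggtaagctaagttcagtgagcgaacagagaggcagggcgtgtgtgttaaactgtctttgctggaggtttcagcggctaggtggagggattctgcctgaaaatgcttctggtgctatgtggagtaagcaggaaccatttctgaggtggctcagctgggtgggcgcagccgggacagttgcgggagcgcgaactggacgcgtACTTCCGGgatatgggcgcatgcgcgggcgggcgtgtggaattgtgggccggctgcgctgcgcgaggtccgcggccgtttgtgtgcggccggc
Snrpg: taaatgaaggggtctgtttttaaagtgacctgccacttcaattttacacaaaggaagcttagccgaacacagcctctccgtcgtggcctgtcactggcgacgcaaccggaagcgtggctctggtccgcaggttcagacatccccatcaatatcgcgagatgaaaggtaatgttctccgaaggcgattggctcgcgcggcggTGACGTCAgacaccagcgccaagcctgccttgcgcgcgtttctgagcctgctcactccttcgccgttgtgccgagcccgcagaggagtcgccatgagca

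The 9 measured members with the ETS letters had ratios from -0.75 to 0.62, with a median of 0.17, and 5 were above 0 and 4 below. The 44 without them had a median of 0.09, so members with and without the letters spanned both directions. The letters TGACGTCA were in 2 members, Lsm2 and Snrpg, and TGACTCA, the AP-1 element, in Hnrnpa1 and Snrpc, or 3.64% in each case against 3.34% and 5.27% of measured genes. GGGCGG, the GC box, was in 70.9% of members against 66.5%, CCAAT in 47.3% against 43.4% and TATAAA in 9.09% against 11.2%. Both strands were searched throughout, and in the windows shown no other searched motif overlapped the capitals. A match is a description of these letters, and not a bound site.

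The factors that recognise the end of the intron came next. U2af2, which binds the polypyrimidine tract, had signals of 10076 and 13980, a ratio of 0.47, and its partner U2af1, which reads the terminal AG, had 3404 and 3313, a ratio of -0.04. U2af1l4, a relative of U2af1, had 478 and 886 and was at least 1.81-fold higher, below the negative controls on both arrays. Sf1, the branch point binding protein, had 1320 and 697 and was 1.89-fold lower, also within the range of the negative controls and in a probe set chosen under relaxed rules. The bright members of this step thus had ratios under 1.5-fold, and the larger ones rested on low signals.

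Of the Prpf genes, 6 of 8 were measured, with a median of 0.17. Prpf8, the central scaffold of the U5 particle and the catalytic core, had signals of 5138 and 8338 and was 1.62-fold higher. With the spikes its ratio was 0.22. Prpf6, which bridges U5 and the U4/U6 particle, had 6738 and 6613, a ratio of -0.03. Prpf31, a U4/U6 protein, had 350 and 764 and was at least 1.56-fold higher, near background. Prpf19, the ubiquitin ligase of the complex that activates the spliceosome, had a ratio of 0.30, and Prpf38a and Prpf38b had 0.04 and -0.13. The kinase gene Prpf4b had 321 and 34 and Prpf39 had 413 and 41, all below the floor, so no ratio was taken. Of the U5 proteins among these Prpf genes, Prpf8 was thus higher and Prpf6 nearly equal, both with bright signals. U5 proteins outside the Prpf genes are not covered by this.

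**Figure D3:**
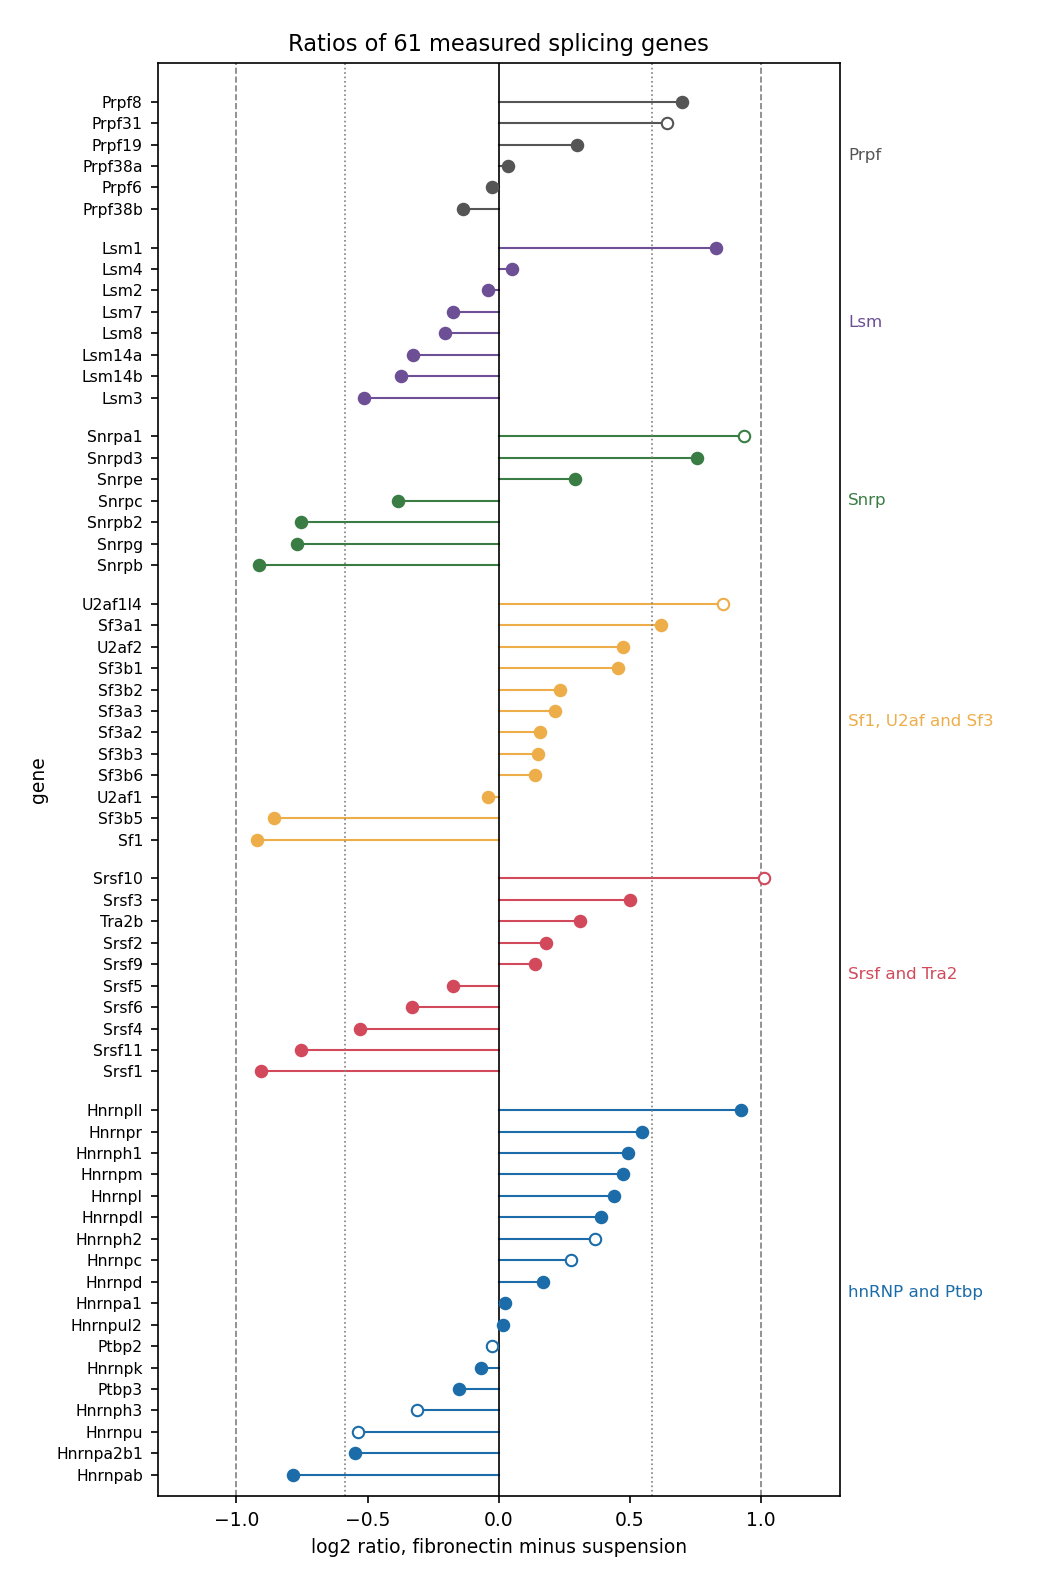
The points give the log2 ratio, fibronectin minus suspension, of each of the 61 measured splicing genes, ordered within 6 groups; open points are bounds with 1 array below the floor. Dotted lines mark 1.5-fold and dashed lines 2-fold. Srsf10 reaches 2-fold and 44 genes, some of them bounds, lie between the dotted lines.

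The SR proteins showed no common direction, with 5 of 10 genes above 0, 5 below and a median of -0.02. Srsf10, an SR protein that can repress splicing, had signals of 439 and 988 and was at least 2.02-fold higher. The fibronectin signal was below the 95th percentile of the negative controls, and a second probe set lay below the floor on both arrays. Srsf1, the prototype SR protein, had 1345 and 719 in its only measured probe set and was 1.87-fold lower, with both signals within the range of the negative controls. Its other 3 probe sets lay below the floor on both arrays. Srsf11 had 3694 and 2191 and was 1.69-fold lower, from brighter signals.

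The SR genes with the firmest signals were nearly equal on both arrays. Srsf2 had 14579 and 16538, a ratio of 0.18, with 0.30 in its other probe set. Srsf9 had 6303 and 6944, a ratio of 0.14, and Srsf5 had 6563 and 5813, a ratio of -0.18. Srsf6 and Srsf4 had -0.33 and -0.53, while Tra2b, an SR-like activator of exons, had 0.31. Srsf3, a small SR protein, had 0.50 and 0.21 in its 2 probe sets, at low signals.

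The hnRNP genes were mostly above 0, in 11 of 16 measured cases with a median of 0.22. Together with the polypyrimidine tract binding proteins Ptbp2 and Ptbp3 the median was 0.10, or -0.27 with the spikes. Of these 18 genes, 16 or 88.9% had floored ratios under 1.5-fold, against 61.6% of all measured genes. The 16 include 5 bounds, whose signals before flooring lay further apart than 1.5-fold, so the share overstates how alike the arrays were. Hnrnpll, a relative of Hnrnpl known for exon silencing in lymphocytes, was the only one with a floored ratio at least 1.5-fold higher. It had signals of 1437 and 2724, which is 1.90-fold. Both exceed the 95th percentiles of the negative controls, but the suspension signal lies below the highest of those controls, 1452. Hnrnpl itself had 3033 and 4115, a ratio of 0.44.

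Hnrnpab, an RNA-binding protein of the A/B type, was the only one with a floored ratio at least 1.5-fold lower. It had 2667 and 1548, which is 1.72-fold, and its fibronectin signal was below the 95th percentile of the negative controls. Hnrnpa2b1, which silences exons and binds transported mRNA, had 7494 and 5131, a ratio of -0.55, but 0.10 in a second probe set with 909 and 972. Hnrnpa1, the best known exon silencer, had 2088 and 2120. The A/B types thus ranged from nearly equal to lower in the probe sets read.

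The G-rich sequence binder Hnrnph1 had a ratio of 0.49, while Hnrnph2 and Hnrnph3 had bounds of 0.37 and -0.31 from signals near the floor. Hnrnpm and Hnrnpr had 0.47 and 0.55. The mRNA decay factor Hnrnpd and its relative Hnrnpdl had 0.17 and 0.39, with 0.37 in another probe set of Hnrnpdl. Hnrnpk, which binds C-rich sequence, had -0.07. Hnrnpc and Hnrnpu had bounds of 0.28 and -0.53, and their signals, 61 and 593 for Hnrnpc and 710 and 286 for Hnrnpu, were in the range of the negative controls. Hnrnpul2 had 0.02 in one probe set and -0.89 in the other, with signals of 1690 and 911 in the latter. Ptbp3 had -0.15 and Ptbp2 a bound of -0.02.

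Of the 9 members with a second measured probe set, 6 had the same sign in both. The exceptions were Hnrnpa2b1, Hnrnpul2 and Sf3a2, and in each of them at least 1 of the ratios lay within 0.3 of 0. Between probe sets of a member the SD of a ratio was 0.44.

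**Figure D4:**
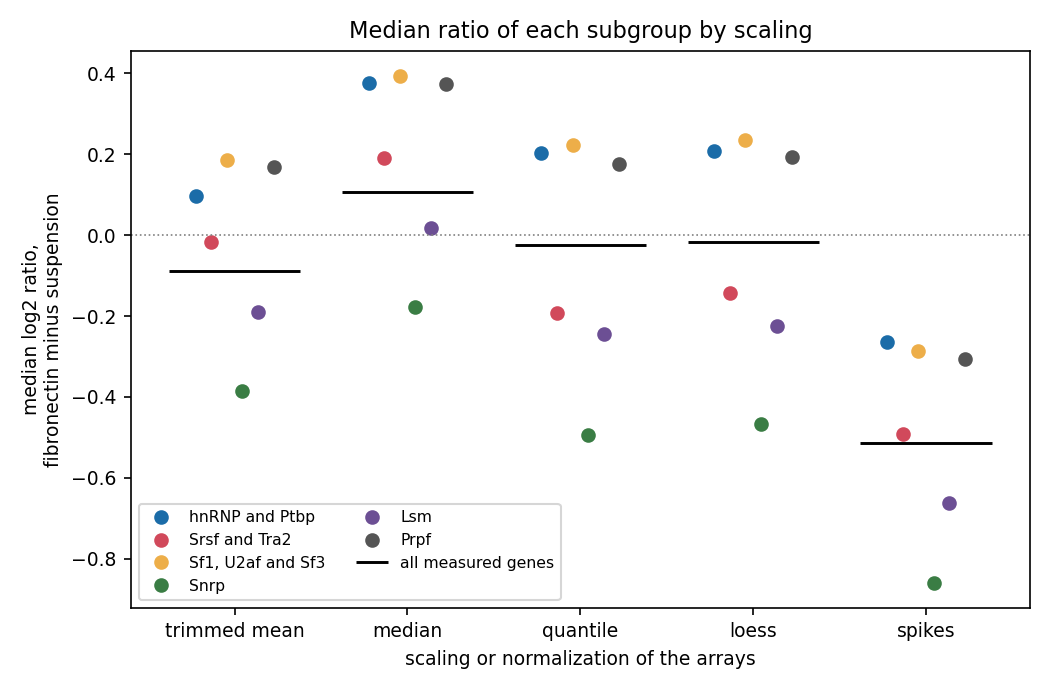
Points give the median log2 ratio of the measured genes in each of 6 groups under 5 ways of scaling or normalizing the arrays, and black lines the median of all measured genes. The Sf1, U2af and Sf3 group, the Prpf group and the hnRNP and Ptbp group lie above the black line each time, and the Snrp and Lsm groups below it.

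By group, the medians of the hnRNP and Ptbp genes, of the Sf1, U2af and Sf3 genes and of the Prpf genes lay above that of all genes under all 11 alternatives. The Lsm median lay below it under all 11. The Snrp median lay below it under all but 1, the plain suffix. The SR and Tra2 median was above it under 5 of the 11. These are descriptions of groups of 6 to 18 genes on 2 arrays, and the groups were not matched to all genes in signal level.

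Beyond these families, 115 genes with other known roles in splicing and RNA processing were listed, of which 89 are on the array and 82 were measured. Of these, 5 (6.10%) were higher and 6 (7.32%) lower by 2-fold or more, against 5.79% and 9.27% of all measured genes. Neither share thus lay far from that of all genes. The median was -0.02, or 0.16 under median scaling. Sfpq, a paraspeckle protein, had signals of 547 and 2250 and was 4.11-fold higher, while 2 other probe sets of it were lower, with bounds of 1.51-fold and 1.19-fold. The cleavage factor Cpsf4 had 624 and 1963 and was 3.15-fold higher. Cstf2, another cleavage factor, had 322 and 1237, a bound of 2.53-fold. Clk4, a kinase of SR proteins, was at least 2.72-fold higher, with a bound of 1.41-fold in its other probe set. The spliceosome protein Crnkl1 was at least 2.32-fold higher.

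Rbfox2, a regulator of alternative exons, had signals of 4620 and 814 and was 5.67-fold lower, but at least 1.38-fold higher in its other probe set. The splicing regulator Celf1 was at least 2.87-fold lower, the U2 helicase Ddx46 2.27-fold, and Rbmx, an hnRNP-like protein, at least 2.17-fold. Sart1, a protein of the U4/U6/U5 particle, was 2.06-fold lower and the signalling-linked RNA-binding protein Khdrbs1 2.03-fold. None of these 11 genes had both signals above the negative controls.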

How the data were processed

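The deposited values are intensities, 1 linear signal per probe set, which the authors computed with the MAS5 algorithm, per the submitters' processing notes, with version and scaling target not stated in any label. Other settings, such as chip lot and scan day, were read from the deposited instrument text files. The trimmed means of the arrays, leaving out 2% at each end, were 1489 and 1486. Over 12422 probe sets, without controls, both arrays were brought to the average of these trimmed means. The floor was the mean of the arrays' 40th percentiles. Negative controls were 34 antisense, unspiked bacterial and yeast probe sets.

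Symbols came from the platform annotation of 12488 probe sets, 10833 of them with 1 gene and not controls, and all 63 members matched the RefSeq gene table of GRCm38.p6 with the same symbol. Described with both signals were the members at least 1.5-fold either way, those whose probe sets disagreed in sign beyond 0.3 on the log2 scale, and the 10 brightest. Of the other RNA processing genes, those at least 2-fold either way were named. Further members were added to make the account complete. The members and lists were chosen with earlier results of these data known, and the complexes within the groups and the promoter motifs after the values were seen.

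No test was made, since each group has 1 array. The alternatives were median scaling, quantile normalization, loess with a span of 0.4, hybridisation spikes, floors at the 20th and 60th percentiles, at the negative controls or none, the mean over probe sets, plain suffixes only and a signal above the floor on both arrays. Processing was tested on simulated data with known folds. The simulated noise was smaller than the error between probe sets, and the planted changes were larger than the members' ratios. The simulation therefore does not show how well ratios of the size described here are recovered. Python 3.11.15, numpy 2.4.6, pandas 2.3.3 and statsmodels 0.14.6 were used.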

Additional observations from a re-analysis of the deposited data

How the results depend on the processing

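No paired analysis was possible because each group has 1 array. Each count of members is followed by the share of all measured genes under the same setting. The count of members at least 2-fold higher, 1 in the main setting (all genes 5.79%), was 4 with median scaling (9.33%), 3 with quantile normalization (7.33%), 3 with loess (7.23%) and 0 with the spikes (2.11%). It was 5 with a floor at the 20th percentile (10.6%) and 5 with no floor (11.3%). It was 0 at the 60th percentile (3.41%), 0 at the negative controls (2.89%) and 0 when both arrays had to reach the floor (4.66%). At 1.5-fold it was 9 (15.9%) and at 3-fold 0 (1.38%). The count at least 2-fold lower, 0 in the main setting (9.27%), was 1 with loess (6.89%), 10 with the spikes (22.1%), 3 for the 20th percentile (15.4%), 2 with no floor (16.2%), 1 with the mean over probe sets (8.49%) and 8 at 1.5-fold (22.6%). All genes moved too, from 370 higher and 592 lower to 596 and 405 with median scaling and 134 and 1409 with the spikes. The 17 genes at least 1.5-fold either way kept their sign under every alternative that measured them, and 3 of them, Sf3b5, Snrpa1 and Srsf10, stayed at least 1.5-fold under each. Snrpa1 and Srsf10 could be read under 8 of the 11. The ratio of Sf3b5 could move only under the other scalings and normalizations. Low signals limit the genes near the floor, where the floor sets the size of the ratio.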

Other observations

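The 8 probe sets that list a splicing gene together with another gene had ratios from -0.51 to 0.55, among them 0.13 where the suspension signal was 7616 and the fibronectin signal 8309, and -0.03 where these were 6664 and 6519.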
